A study of Mus musculus with 12 samples.

Results

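The genes described here are 9 members of the steroid and thyroid hormone system: Star, Cyp11a1 and Hsd11b1, which act in steroid synthesis and activation, and the receptor genes Esr1, Pgr, Nr3c1, Nr3c2, Thra and Thrb. They were taken by symbol from the annotation of the array, with the brightest probe set where a symbol had more than 1, and all 9 were found among 22180 genes. The set was chosen by levels of some of its genes on these same 12 arrays, with Star named first, and which comparison led to the choice is not recorded. Every difference and adjusted p below therefore describes these arrays, from a fit over the whole table, and is no independent support. Expression was measured in SKPs, the skin-derived precursors of the dermis, which were grown in suspension as spheres, on Affymetrix whole-transcript arrays of the mouse. The 12 samples fell into 4 groups of 3: wounded skin with trimebutine maleate (wound trimebutine), wounded skin with alprostadil, which is prostaglandin E1 (wound alprostadil), wounded skin with vehicle (wound vehicle) and uninjured skin with vehicle (uninjured vehicle). All mice were 9 months old, and the labels give the strain as CD57/Bl6. No source used here gives the doses, the times or the site of the skin. The cells were measured as secondary spheres, after culture with FGF2, EGF and B27, so no value is that of a wound itself. B27 is a supplement that holds corticosterone, progesterone and triiodothyronine, and every group was grown in it.

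Steroid hormones are made from cholesterol. The protein of Star carries cholesterol to the inner mitochondrial membrane, where the enzyme of Cyp11a1 cuts its side chain to give pregnenolone, the parent of all steroid hormones. Most of the hormones act through nuclear receptors, transcription factors that bind a hormone and a short DNA element, and tissues such as skin also set their own hormone level, for example by turning inactive cortisone or 11-dehydrocorticosterone into active glucocorticoid with the enzyme of Hsd11b1. In dermal fibroblasts glucocorticoids are known to restrain collagen synthesis and inflammation, and oestrogen is known to favour repair of skin.

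Levels are log2 values made by the authors with RMA, a background correction and normalisation of array intensities, and a step of 1 is a doubling. Values of different genes come from different probes, so levels are set side by side only within a gene. Array medians lay between 6.57 and 6.74. Testing was limited to genes that exceeded the array median on 3 or more of the 12 arrays, which kept 13153 genes and 7 of the 9 members. Of these 7, Hsd11b1 passed on 11 arrays and the others on all 12, while Cyp11a1 and Pgr were below the array median on every array and were not tested. The dermal genes Pdgfra, Fn1, Col1a1, Col1a2 and Vcan were bright on all arrays. Of the same list, Alpl and Corin were above the array median on all 12 arrays, at up to 7.69 and 7.92. Nes (nestin) was above it on 11, at up to 7.12, and the SKP gene Sox2 was below it on all 12. Macrophage genes were high on wound alprostadil replicate 1, with a mean of 12 markers of 11.07, against 7.71 or less on each of the other 11 arrays. The 7.71 was on wound vehicle replicate 2, where 10 of the 12 markers were above the array median, against 2 on wound alprostadil replicate 2.

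Star stood far higher in all groups from wounded skin. It was 9.87, 9.86 and 10.33 in wound trimebutine, 9.79, 9.90 and 9.08 in wound alprostadil, and 9.998, 9.00 and 9.97 in wound vehicle, against 7.03, 6.84 and 8.55 in uninjured vehicle. All 9 wound arrays were above all 3 uninjured arrays, with a gap of 0.45 between the lowest wound array (wound vehicle replicate 2) and the highest uninjured array (replicate 3). Without a drug, Star was higher by 2.18 ± 0.44 log2 units in wound vehicle than in uninjured vehicle (SE, n = 3 per group), a ratio of 4.54, and did not pass after adjustment in limma (adjusted p = 0.118). With the 3 wound groups pooled, which sets 9 arrays against 3, Star rose by 2.28 ± 0.36 (limma, adjusted p = 0.0415), a ratio of 4.86. By size this was rank 1 among the differences of 13153 genes toward the wound groups, and rank 3 in wound vehicle alone.

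The rise of Star in the pooled comparison did not pass without wound vehicle replicate 1 or 3, wound trimebutine replicate 2 or 3, wound alprostadil replicate 1 or 2, or uninjured vehicle replicate 1 or 2, with adjusted p in limma of 0.0601 to 0.275. It was 1.96 at the lowest, without uninjured vehicle replicate 2, and 2.82 without uninjured vehicle replicate 3 (limma, adjusted p = 0.00853). Without wound alprostadil replicate 1, the array with the highest macrophage mean, it was 2.25 (limma, adjusted p = 0.0762).

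Cyp11a1 and the marker genes of steroid-producing cells stayed at or below the middle of the arrays. Cyp11a1 lay at 6.28, 6.07 and 6.04 in wound trimebutine, 6.07, 6.02 and 6.07 in wound alprostadil, and 6.08, 5.93 and 6.34 in wound vehicle, against 6.16, 6.17 and 6.16 in uninjured vehicle, all below the array median. Its other probe set, which was not used, lay between 5.74 and 6.11. Of 5 marker genes of adrenal or gonadal cells, Cyp17a1, Cyp11b1, Hsd3b1 and Mc2r were below the array median on all 12 arrays, and Nr5a1, the master regulator of steroid-producing cells, lay between 6.57 and 6.76, close to the medians. The array median served as the filter and was not measured as a limit of detection, so a value below it does not show that a transcript is absent.

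Of 10 marker lists of cell types, 1 had means that did not overlap between wounded and uninjured arrays, the endothelial list, which was higher in wounds like Star. The mean of its 5 genes was 6.84 to 7.77 on wound arrays, against 6.53 to 6.77 on uninjured arrays. Cdh5 (VE-cadherin) reached 9.98 on wound vehicle replicate 2, and its next highest array was also at 9.98. Tek was above the array median on all 12 arrays and Pecam1 below it on all 12. Kdr and Vwf were above it on 1 and 4 arrays, and both were highest on wound alprostadil replicate 1. The mean of the list was 7.42 on wound vehicle replicate 1 and 7.32 on wound vehicle replicate 2, where Star was 9.998 and 9.00. The part of endothelial cells in the level of Star was not tested. In such bulk samples fewer cells of a type and less RNA per cell cannot be told apart.

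**Figure D1:**
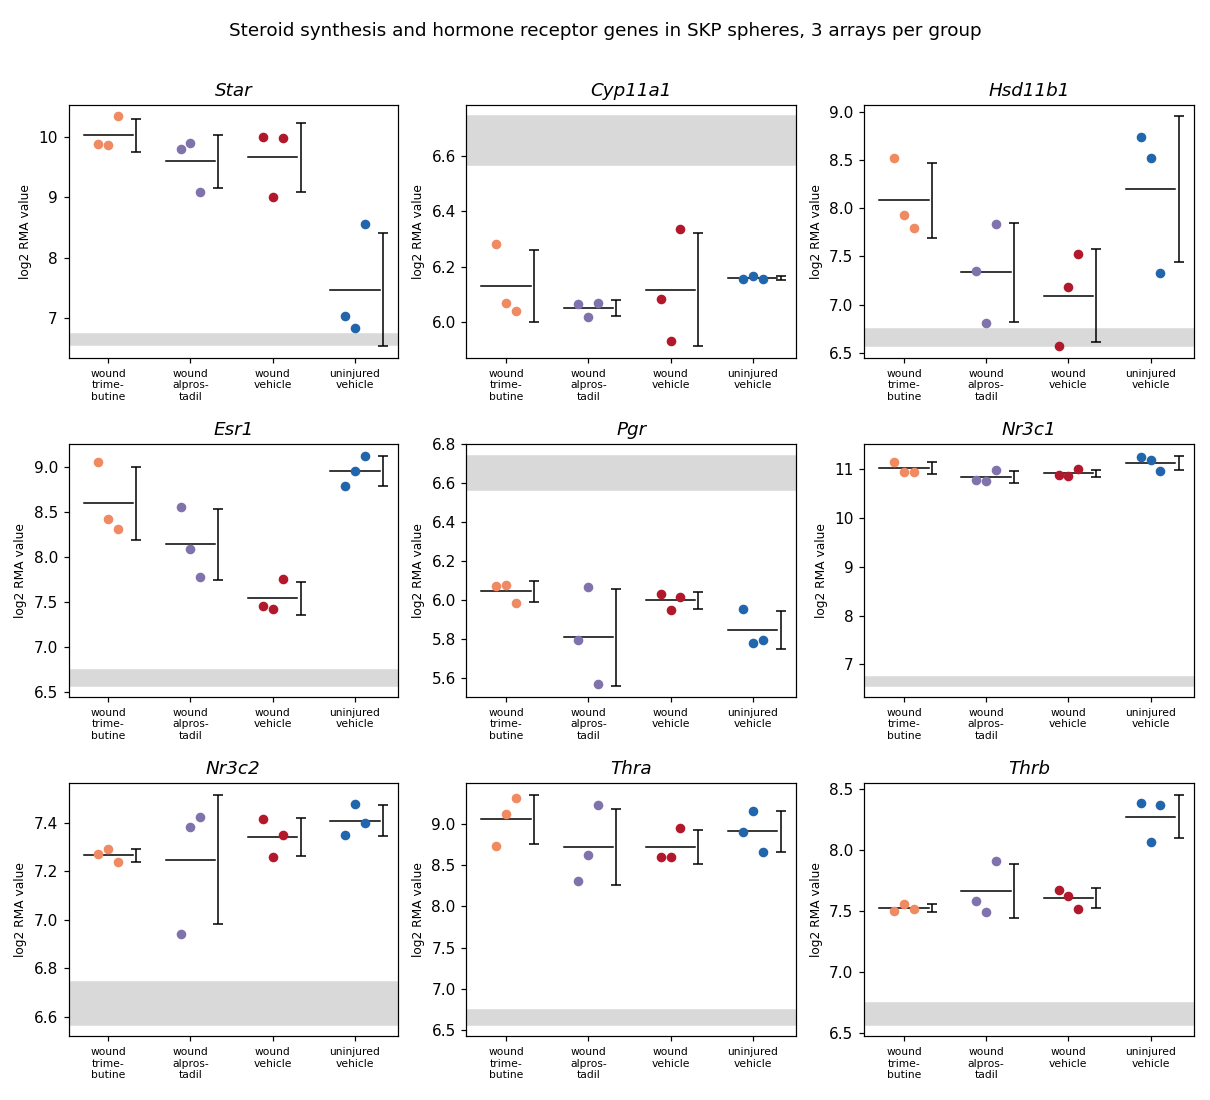
Log2 RMA value (vertical axis) of each of the 9 genes in the 4 groups; points are arrays (replicates 1, 2 and 3 from left to right), horizontal lines are means, bars are SD over 3 arrays, the grey band spans the 12 array medians, and the axes do not start at 0. Star is above 9 on all wound arrays and at most 8.55 on uninjured arrays, Thrb shows the opposite order, and Cyp11a1 and Pgr lie below the band throughout.

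Thrb, the beta receptor of thyroid hormone, showed the opposite order from Star. It was 7.50, 7.56 and 7.52 in wound trimebutine, 7.58, 7.49 and 7.91 in wound alprostadil, and 7.67, 7.63 and 7.51 in wound vehicle, against 8.38, 8.07 and 8.37 in uninjured vehicle. All 9 wound arrays were below all 3 uninjured arrays, the nearest being wound alprostadil replicate 3 and uninjured vehicle replicate 2. Wound vehicle differed from uninjured vehicle by -0.67 ± 0.12 (SE, n = 3 per group; limma, adjusted p = 0.109). That adjusted p was 0.0467 without wound alprostadil replicate 3 and 0.0746 to 0.416 without any other single array (limma). With the 3 wound groups together Thrb fell, at -0.68 ± 0.10 (limma, adjusted p = 0.0296), 1.60-fold lower than in uninjured vehicle. That call was lost without any wound vehicle or uninjured vehicle array, wound trimebutine replicate 2 or 3, or wound alprostadil replicate 1 (limma, adjusted p of 0.0526 to 0.197), with values of -0.78 to -0.62 over these fits.

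Thra, the alpha receptor of thyroid hormone, had no such order. It was 8.73, 9.11 and 9.31 in wound trimebutine, 8.30, 8.63 and 9.22 in wound alprostadil, and 8.60, 8.60 and 8.95 in wound vehicle, against 8.90, 9.16 and 8.66 in uninjured vehicle. The 4 groups overlapped, and the pooled wound groups differed from uninjured vehicle by -0.08 ± 0.19 (limma, adjusted p = 0.923). Whether the difference of Thrb exceeded that of Thra was not tested.

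The windows around the RefSeq transcription starts of Thrb and Esr1 are shown because these receptor genes were both lower in wound vehicle. Windows of 300 bases, 250 before and 50 after a start, were given for 6 of the 9 members in the RefSeq table (GRCm38.p6), and Thrb and Esr1 each have 2 starts there. The array value of a gene does not separate its starts. Capitals mark AGGTCA, the core element bound by thyroid hormone and many other nuclear receptors, and AGAACA, the core element of glucocorticoid, mineralocorticoid and progesterone receptors. Both were searched on both strands, so that TGTTCT marks AGAACA on the opposite strand, and the 2 motifs do not overlap here.
Thrb, chr14:17660710-17661009, plus strand: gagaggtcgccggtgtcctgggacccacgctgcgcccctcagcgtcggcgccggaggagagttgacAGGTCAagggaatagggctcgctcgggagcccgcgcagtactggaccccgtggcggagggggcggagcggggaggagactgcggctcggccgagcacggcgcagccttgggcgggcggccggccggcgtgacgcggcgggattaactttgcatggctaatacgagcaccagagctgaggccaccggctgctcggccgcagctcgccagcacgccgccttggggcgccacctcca
Thrb, chr14:17981394-17981693, plus strand: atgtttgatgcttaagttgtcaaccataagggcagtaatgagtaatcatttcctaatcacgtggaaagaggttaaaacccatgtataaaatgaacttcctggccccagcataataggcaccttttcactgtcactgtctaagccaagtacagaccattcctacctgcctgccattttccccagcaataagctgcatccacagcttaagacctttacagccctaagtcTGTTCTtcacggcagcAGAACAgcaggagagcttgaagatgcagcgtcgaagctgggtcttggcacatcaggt
Esr1, chr10:4611739-4612038, plus strand: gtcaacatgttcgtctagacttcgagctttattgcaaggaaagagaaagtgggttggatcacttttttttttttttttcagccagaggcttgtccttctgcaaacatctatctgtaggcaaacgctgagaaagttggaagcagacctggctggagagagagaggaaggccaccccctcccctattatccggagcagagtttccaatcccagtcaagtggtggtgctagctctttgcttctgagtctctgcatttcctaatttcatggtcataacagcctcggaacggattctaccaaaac
Esr1, chr10:4709908-4710207, plus strand: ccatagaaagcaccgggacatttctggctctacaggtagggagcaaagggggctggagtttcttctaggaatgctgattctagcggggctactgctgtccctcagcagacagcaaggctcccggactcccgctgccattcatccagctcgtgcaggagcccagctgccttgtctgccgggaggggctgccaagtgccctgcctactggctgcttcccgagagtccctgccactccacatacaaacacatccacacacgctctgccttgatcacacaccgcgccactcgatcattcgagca

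The first window of Thrb held AGGTCA on the strand of the gene, beginning 184 bases before the start. The second held AGAACA in both orientations, beginning 23 and 7 bases before the start. Neither motif is in these letters of the 2 windows of Esr1. Among 32851 RefSeq windows of this length, 16.3% hold AGGTCA and 19% hold AGAACA, so a match is common.

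Esr1, the alpha receptor of oestrogen, had its highest mean in uninjured vehicle and its lowest in wound vehicle, with both drug groups between them. It was 9.07, 8.42 and 8.32 in wound trimebutine, 8.55, 8.09 and 7.77 in wound alprostadil, and 7.46, 7.42 and 7.75 in wound vehicle, against 8.79, 8.96 and 9.13 in uninjured vehicle. The 3 wound vehicle arrays were below all other 9 arrays, those of both drug groups included, and wound trimebutine replicate 1 lay inside the range of uninjured vehicle. In wound vehicle Esr1 was 2.67-fold lower than in uninjured vehicle, at -1.42 ± 0.23 (SE, n = 3 per group), which did not pass in limma (adjusted p = 0.0671). It passed without wound trimebutine replicate 1 (adjusted p = 0.0436 in limma) or wound alprostadil replicate 3 (0.0467), at the same difference. Without any other single array it did not pass (limma, adjusted p of 0.0707 to 0.331).

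With trimebutine Esr1 was higher than in wound vehicle by 1.06 ± 0.23 (SE, n = 3 per group), a ratio of 2.08, and with alprostadil by 0.60 ± 0.23, a ratio of 1.51, and the arrays did not overlap in either comparison. Neither passed in limma (adjusted p = 0.528 and 0.998). Without wound alprostadil replicate 1, the array with the highest macrophage mean and the highest Esr1 of its group, the difference with alprostadil was 0.39. These comparisons and the one of injury share the 3 wound vehicle arrays, so a low reading there would enter all of them. The pooled wound groups differed from uninjured vehicle by -0.87 ± 0.19 (limma, adjusted p = 0.12), and by -0.94 without wound trimebutine replicate 1 (adjusted p = 0.0476). Without any other single array the pooled difference did not pass (limma, adjusted p of 0.0805 to 0.523). In the order of the group means, uninjured vehicle (8.96 ± 0.17, SD, n = 3), wound trimebutine (8.60 ± 0.41), wound alprostadil (8.14 ± 0.39) and wound vehicle (7.54 ± 0.18), each step exceeded the pooled SD of 0.31, but the first, of 0.36, was below the SD of wound trimebutine, and the arrays of uninjured vehicle and wound trimebutine, and those of both drug groups, overlapped.

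Hsd11b1, whose enzyme regenerates active glucocorticoid, varied most within groups after Star. It was 8.52, 7.93 and 7.80 in wound trimebutine, 7.35, 6.81 and 7.84 in wound alprostadil, and 6.57, 7.18 and 7.52 in wound vehicle, against 8.74, 8.52 and 7.33 in uninjured vehicle. The wound trimebutine arrays were above all wound vehicle arrays, with a difference of 0.99 ± 0.40 (SE, n = 3 per group; limma, adjusted p = 0.528). The wound vehicle and uninjured arrays overlapped through uninjured vehicle replicate 3, and the difference was -1.10 ± 0.40 (limma, adjusted p = 0.308). Uninjured vehicle replicate 3 was also the highest uninjured array for Star, and without it the differences of wound vehicle from uninjured vehicle were -1.54 for Hsd11b1 and 2.72 for Star (limma, adjusted p = 0.0992 and 0.0203). Without any other single array that difference of Star did not pass (limma, adjusted p of 0.0897 to 0.492). It was 1.86 at the lowest, without uninjured vehicle replicate 2.

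Nr3c1, the glucocorticoid receptor, was bright and steady. It was 11.15, 10.93 and 10.94 in wound trimebutine, 10.76, 10.75 and 10.97 in wound alprostadil, and 10.88, 10.85 and 10.99 in wound vehicle, against 11.24, 11.17 and 10.95 in uninjured vehicle. The groups overlapped through uninjured vehicle replicate 3, no neighbours in the order of means differed by more than the pooled SD of 0.12, and the pooled wound groups differed from uninjured vehicle by -0.21 ± 0.09 (limma, adjusted p = 0.431).

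Nr3c2, the mineralocorticoid receptor, lay between 6.94 and 7.48 on the 12 arrays, and its group means spanned 7.25 ± 0.27 in wound alprostadil to 7.41 ± 0.06 in uninjured vehicle (SD, n = 3). Its lowest value, 6.94, was on wound alprostadil replicate 1, the array with the highest macrophage mean, and without that array the difference of wound alprostadil from wound vehicle was 0.06, against -0.09 ± 0.12 with it (limma, adjusted p = 0.998). Thra, too, was lowest on that array, and without it the same difference was 0.21, against 0.00 ± 0.24 with it. Pgr, the progesterone receptor, stayed between 5.57 and 6.08, below the array median on all arrays.

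Star and Thrb were the members past the threshold between wounded and uninjured skin. In the pooled wound comparison 2 of the 7 tested members passed, where 0.243% of the 13153 genes did. At an unadjusted p under 0.05 there were 4 of 7 members (10.3% of all genes), and for 2 of 7 the arrays did not overlap (2.56% of all genes). In wound vehicle against uninjured vehicle 0 of 7 passed in limma (0.0456% of all genes), with 4 at an unadjusted p under 0.05 (13% of all genes), and the arrays did not overlap for 3 (18% of all genes), namely Star, Esr1 and Thrb. The median difference of the 7 was -0.22 in wound vehicle and -0.21 in the pooled wound groups, where the medians of all genes were 0.01 in both, and 6 of 7 lay below 0 in each.

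The drugs moved no member past the threshold. With trimebutine 0 of 7 passed in limma (0% of all genes), with 2 at an unadjusted p under 0.05 (9.43% of all genes), and Esr1 and Hsd11b1 did not overlap with wound vehicle (15.8% of all genes). With alprostadil 0 of 7 passed (0% of all genes), with 1 at an unadjusted p under 0.05 (2.75% of all genes), and Esr1 alone did not overlap (5.9% of all genes). Star differed from wound vehicle by 0.37 ± 0.44 with trimebutine and -0.07 ± 0.44 with alprostadil, and Thrb by -0.08 ± 0.12 and 0.06 ± 0.12. The trimebutine value of Star was 0.0386 without wound vehicle replicate 2, 0.21 without wound trimebutine replicate 3 and 0.54 at the highest, without wound vehicle replicate 1. In the F test over the 4 groups 0 of 7 members passed in limma (0.0152% of all genes), and the smallest adjusted p among them was 0.163, that of Thrb.

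**Figure D2:**
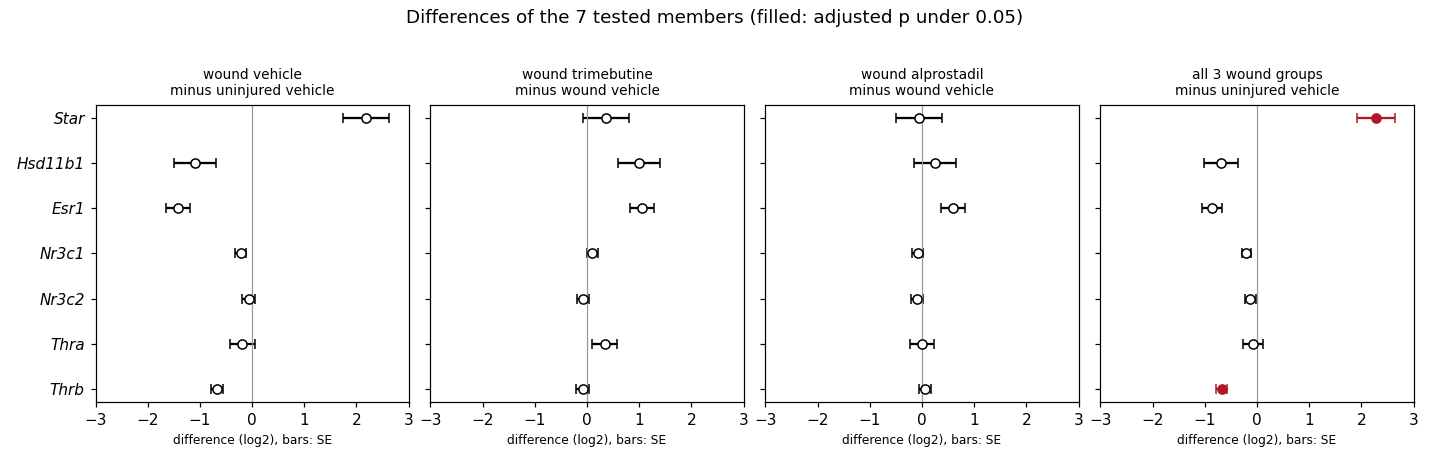
Difference on the log2 scale (horizontal axis) of the 7 tested genes in 4 comparisons; points are limma estimates, bars are SE, and filled red points have an adjusted p under 0.05. Star (2.28) and Thrb (-0.68) pass in the comparison of all wound groups with uninjured vehicle, and Esr1 is lower in wound vehicle than in uninjured vehicle (-1.42) and higher with trimebutine (1.06) without passing.

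Over the 12 arrays the genes whose pattern was most like that of Star were Nr2f2, which encodes the orphan nuclear receptor COUP-TFII (Pearson r = 0.95), Osbpl6, of the oxysterol-binding protein family (0.93), and Letmd1 (0.92). Nr2f2 was 8.45 to 8.67 in wound trimebutine, 8.13 to 8.45 in wound alprostadil and 8.37 to 8.65 in wound vehicle, against 7.76 to 8.02 in uninjured vehicle. It rose in the pooled wound groups by 0.62 ± 0.10 (limma, adjusted p = 0.0415), while Osbpl6 differed by 0.99 ± 0.17 (adjusted p = 0.0569). Most like Esr1 were Cgnl1, a junction protein of the cingulin family (0.94), Itgbl1 (0.92) and Nrn1, the neuronal growth protein neuritin (0.91). Nrn1 was 9.41 to 11.18 in wound trimebutine, 9.01 to 10.61 in wound alprostadil and 7.95 to 9.10 in wound vehicle, against 10.86 to 11.65 in uninjured vehicle, the order of Esr1. Most like Hsd11b1 were Abhd14b, Dkk3 and the glutathione transferase gene Gstm2 (0.96, 0.96 and 0.95). Arrays of a group share their treatment, so each r over 12 arrays is a description.

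**Figure D3:**
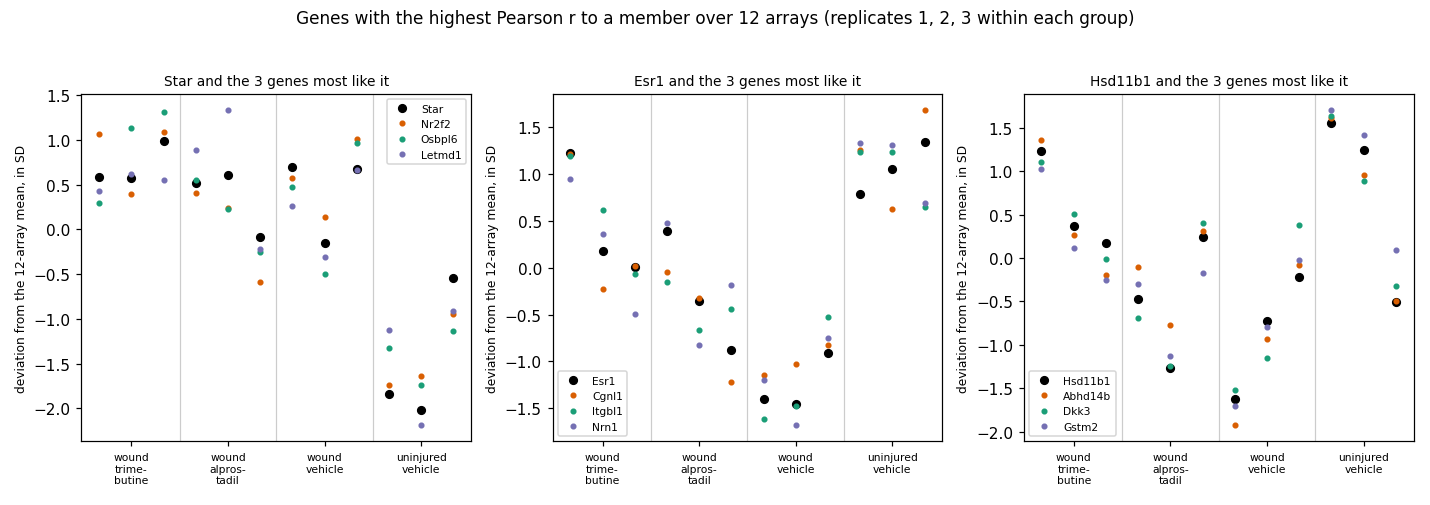
Deviation from the mean of 12 arrays, in SD of each gene (vertical axis), for Star, Esr1 and Hsd11b1 (black) and the 3 genes with the highest Pearson r to each (colours), by group with replicates 1, 2 and 3 from left to right. The genes like Star are low on the 3 uninjured arrays, those like Esr1 are mostly lowest in wound vehicle, and those like Hsd11b1 vary within groups as well.

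Among other genes of steroid synthesis and metabolism none passed the threshold. Of 32 listed genes found, 18 were tested, and 0 passed in either direction in any of the 4 comparisons. In the pooled wound groups 10 were above and 8 below 0, with a median of 0.02 (all genes 0.01). Hsd17b7, which acts in cholesterol and oestrogen synthesis, differed by -0.95 ± 0.47 (limma, adjusted p = 0.538) and Akr1c18, a progesterone-degrading enzyme, by 0.71 ± 1.27 (adjusted p = 0.895). In wound vehicle the second largest difference was that of Cyp7b1, an oxysterol hydroxylase, which was 10.72 to 11.71 there, against 12.001 to 12.52 in uninjured vehicle, without overlap (-1.10 ± 0.27; limma, adjusted p = 0.187). In that comparison 4 of the 18 did not overlap (18% of all genes). In the pooled wound groups 1 of the 18 did not overlap (2.56% of all genes). It was Hsd17b11, at 11.10 to 11.51 on wound arrays, against 10.91 to 11.01 on uninjured arrays.

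Genes that the glucocorticoid receptor is known to induce lay mostly below 0, without passing. All 13 listed genes were tested, 0 passed in any comparison, and 12 of 13 lay below 0 both in wound vehicle (median -0.28, all genes 0.01) and in the pooled wound groups (median -0.17, all genes 0.01). Against wound vehicle, whose arrays these comparisons share, 11 of 13 lay above 0 with trimebutine (median 0.14, all genes -3.6e-05) and 10 of 13 with alprostadil (median 0.12, all genes 0.03). Dusp1, a phosphatase of MAP kinases, was 8.59 to 9.46 in wound trimebutine, 9.21 to 10.14 in wound alprostadil and 9.06 to 9.87 in wound vehicle, against 10.20 to 11.04 in uninjured vehicle. Its 9 wound arrays were below the 3 uninjured arrays, and the pooled difference was -1.17 ± 0.27 (limma, adjusted p = 0.143). Sgk1, a kinase of salt transport, differed by -1.21 ± 0.52 in wound vehicle (limma, adjusted p = 0.367), and Zbtb16, a zinc-finger factor, by -0.83 ± 0.32 in the pooled wound groups (adjusted p = 0.402). Pdk4 was 6.34 to 6.66 in wound vehicle, against 6.86 to 7.88 in uninjured vehicle, and Cebpd was 7.74 to 8.07, against 8.37 to 9.32. In that comparison the arrays of 4 of the 13 did not overlap (18% of all genes). At an unadjusted p under 0.05 in limma there were 5 of the 13 (13% of all genes). Klf9, Mt2 and Fkbp5 hardly differed, with means of 10.08, 13.24 and 8.58 in wound vehicle, against 10.07, 13.30 and 8.66 in uninjured vehicle, and overlapping arrays. Dusp1, Sgk1 and Cebpd also respond to growth factors and stress, and the part of the receptor in their levels was not tested.

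The remaining lists had no gene past the threshold in any of the 4 comparisons, in either direction. Among other receptors of steroid and related hormones, 11 of 14 genes found were tested, and the largest differences in wound vehicle were those of Vdr, the vitamin D receptor (-0.81 ± 0.45; limma, adjusted p = 0.473), and Paqr8, a membrane progesterone receptor (0.41 ± 0.21; adjusted p = 0.448). Among 9 tested chaperones and coregulators of receptors the largest pooled wound differences were those of the coactivator gene Ncoa1 (0.31 ± 0.14) and of Nrip1, a corepressor gene (0.27 ± 0.12). Of thyroid hormone handling and target genes 5 were tested, and Slc16a10, a transporter of aromatic amino acids and thyroid hormone, differed by -0.50 ± 0.25 in wound vehicle, without overlap (limma, adjusted p = 0.437). Dio1, a deiodinase that activates thyroid hormone, differed by 0.14 ± 0.17 in wound vehicle (limma, adjusted p = 0.746). The other deiodinase genes, Dio2 and Dio3, were not tested, as they did not lie above the array median on 3 arrays. Hr, a target of thyroid hormone receptors, differed by -0.06 ± 0.06 in the pooled wound groups.

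Of 7 tested target genes of oestrogen receptors, Cxcl12, a chemokine gene, differed by -1.16 ± 0.47 and Ccn5 by -0.65 ± 0.45 in wound vehicle (limma, adjusted p = 0.347 and 0.556). Greb1, an oestrogen-induced cofactor gene, differed by 0.35 ± 0.36 in the pooled wound groups (adjusted p = 0.802). With trimebutine Cxcl12, Greb1 and Ccn5 were higher than in wound vehicle by 1.30 ± 0.47, 1.13 ± 0.44 and 1.09 ± 0.45, each with an adjusted p of 0.528 in limma. For Greb1 and Ccn5 the arrays of the 2 groups overlapped. Those 3 were the only targets above 0 in that comparison, while 4 of the 7 lay below 0, and the median of the 7 was -0.04.

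**Figure D4:**
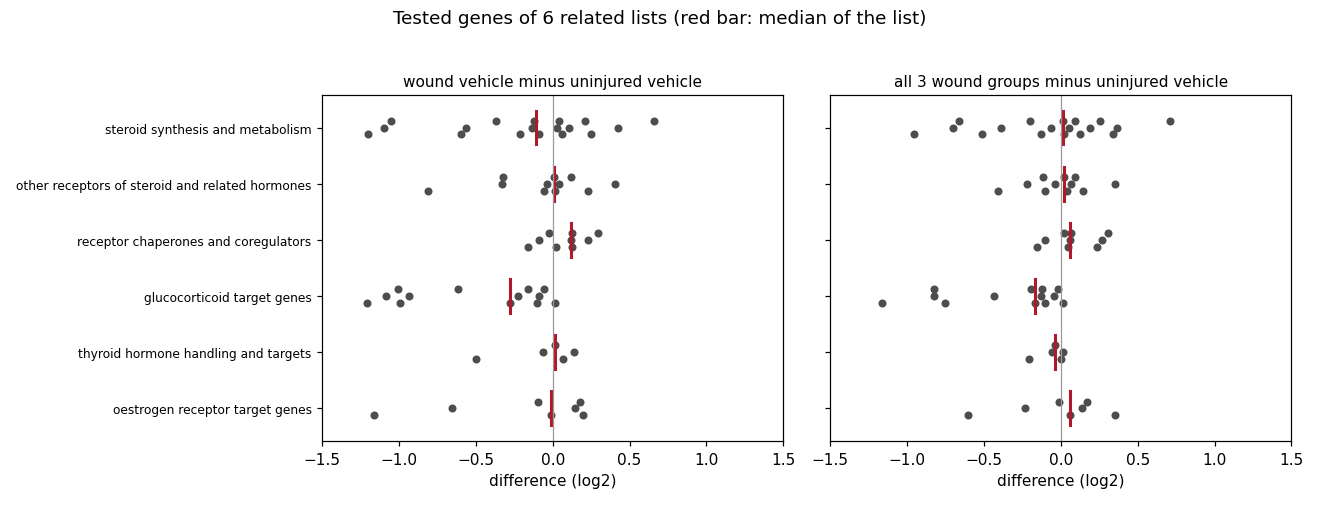
Difference on the log2 scale (horizontal axis) of the tested genes of 6 related lists, in wound vehicle minus uninjured vehicle (left) and in all 3 wound groups minus uninjured vehicle (right); each point is a gene and red bars are list medians. Glucocorticoid target genes lie mostly below 0, with medians of -0.28 and -0.17, and the other lists scatter around 0.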

How the data were processed

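RNA of 12 sphere cultures was hybridised to Affymetrix Mouse Gene 2.0 ST arrays. The authors deposited log2 values for each probe set, and the submitters' processing notes name RMA and oligo without version or settings. Of 41345 probe sets, 23521 have 1 gene symbol, 1814 several and 16010 none. Those with 1 symbol were used, the brightest for each of 22180 genes. Genes over the median of the array on 3 or more of 12 arrays were tested (13153 genes). A single linear model of the 4 groups was fitted with limma 3.58.1 in R 4.3.3, without covariates, with moderated variances and 8 residual degrees of freedom. P-values are two-sided, adjusted over the 13153 genes by Benjamini-Hochberg, and the threshold was 0.05. Precision is limited by 3 arrays a group, which the labels call biological replicates, and p-values measure the spread between them. The fit was tested on simulated data with independent noise of equal spread on all arrays. Correlations between arrays were not part of that test. Figures were drawn in Python 3.11.15 with matplotlib 3.10.9.

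The 9 members and all gene lists were chosen with earlier results of these data known. Named are all members, every list gene past the threshold, the 2 largest differences of each list in wound vehicle and in the pooled wound groups against uninjured vehicle, and the 3 genes most like Star, Esr1 and any other tested member that spans over 2 log2 units. Cebpd, Pdk4, Hsd17b11, Dio2, Dio3 and the means of Klf9, Mt2 and Fkbp5 were added after their values were seen. So were the trimebutine values of Cxcl12, Greb1 and Ccn5. Fkbp5 and Klf9 stand in 2 lists each. The alternatives tried were a replicate block, a filter on 6 arrays and no filter, the mean of probe sets, normalization by cyclic loess or by median, a trended robust variance, weights for arrays, the compared groups alone, and leaving out each array.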

Additional observations from a re-analysis of the deposited data

How the results depend on the processing

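Weights for arrays changed the counts most: 6 members passed in wound vehicle against uninjured vehicle, 3 with trimebutine, 5 in the pooled wound groups and 6 in the F test, where 4997, 4034, 4175 and 5302 of all 13153 genes passed, against 6, 0, 32 and 2 without weights. The cause was not tested. Over all genes, wound vehicle against uninjured vehicle had 2 calls with the replicate block, 1 with median centring, 4 with no filter, cyclic loess or the trended variance, and 0 with the filter on 6 arrays or the compared groups alone, against 6. With the replicate block the pooled wound groups had 1 member past the threshold (Thrb, adjusted p = 0.0487 in limma, and Star at 0.0538), against 2 without it. Same-numbered arrays were not taken as pairs, since those of wound vehicle with uninjured vehicle had correlations of deviations of -0.36, -0.38 and -0.64. Of all arrays, 5 of 12 correlated best with their own number. Other values go the other way, as 11 of 18 same-numbered pairs were over 0.1 (median 0.22, and -0.11 for other pairs). Every same-numbered pair of wound alprostadil with wound vehicle and with wound trimebutine was over 0.1, and none of wound vehicle with uninjured vehicle; with alprostadil the replicate block left 0 members past the threshold, as without it. Leaving out each array in turn gave 0 to 3 members in the pooled wound groups, 0 to 2 in wound vehicle, and 0 with either drug and in the F test, where 0 to 76, 0 to 30, 0 to 11 (trimebutine), 0 to 1 (alprostadil) and 0 to 6 of all genes passed. The signs of small differences reversed. For alprostadil against wound vehicle, leaving out arrays gave -0.39 to 0.19 for Star, -0.0194 to 0.50 for Hsd11b1, -0.18 to 0.061 for Nr3c2, -0.25 to 0.21 for Thra and -0.067 to 0.14 for Thrb, and Thra was -0.00714 with cyclic loess and Thrb -0.0464 with array weights. Thra in the pooled wound groups ran from -0.20 to 0.0482 without single arrays. Star and Thrb kept their sign in the pooled wound groups in all 20 alternatives and passed in 11 each, with 1.96 to 2.83 for Star and -0.78 to -0.52 for Thrb. The other settings kept the same counts of members. The compared groups alone gave no separate value for the pooled wound groups, which use all arrays.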
